A study of Mus musculus with 7 samples.

Results

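The genes described here encode the enzymes of cholesterol and fatty acid synthesis together with the regulators and transporters that control cellular sterol, 34 genes chosen by name from the pathway. Of these, 32 were measured by a probe set with exactly 1 gene symbol, among 18193 genes in all. Acat2 and Nr1h2 had no such probe set and were not analysed here. Each gene was represented by the probe set with the highest mean over all arrays. The series set 2 T-cell leukemias of the mouse side by side on Affymetrix expression arrays, 1 array per cell suspension. The ICN1 group held 3 arrays of bone marrow from C57Bl/6 mice with leukemia driven by ICN1, an activated form of the receptor NOTCH1. The TEL-JAK2 group held 4 arrays of thymus from C57Bl/6 mice whose leukemia was driven by TEL-JAK2, a fusion that keeps the kinase JAK2 active. All mice were terminally ill, and the sources used here give no ages, sorting step, promoter or vector. Genotype and tissue of origin changed together, so they cannot be told apart in any comparison. Nothing in the labels states that the arrays of a group came from separate mice, so p-values reflect only how these arrays vary, which may be partly technical.

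Cells build cholesterol from acetyl-CoA through the mevalonate pathway, which yields isoprenoids, then squalene, then the first sterol, lanosterol, and finally cholesterol. The transcription factor SREBP2 (gene Srebf2) raises most of these enzymes together when membrane sterol falls, while SCAP escorts the SREBP proteins out of the endoplasmic reticulum and the INSIG proteins hold them there. SREBP1 (Srebf1) acts mainly on fatty acid genes, and the oxysterol receptors LXR alpha (Nr1h3) and LXR beta (Nr1h2) induce the exporters Abca1 and Abcg1. Activated and dividing lymphocytes depend on this pathway for new membrane.

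Expression values are on a log2 scale, where a difference of 1 is a doubling, and differences are given as TEL-JAK2 minus ICN1 followed by their standard error (SE). A gene was called higher or lower at an adjusted p under 0.05 by limma over all 18193 genes. Array medians lay between 5.44 and 5.5, and across 45037 probe sets arrays of 1 group correlated at a Pearson's r of 0.973 to 0.989, and arrays of different groups at 0.921 to 0.944. ICN1 replicates 1 and 2 stood apart in holding both Xist (11.51 and 11.78) and the Y-linked gene Eif2s3y (8.93 and 9.41), whereas each of the other arrays was high in only 1 of these genes. Results are therefore also given without those arrays, which leaves 1 ICN1 array whose spread is assumed to equal that of TEL-JAK2. The driver genes Notch1 (-0.19 ± 0.43), Jak2 (0.52 ± 0.25) and Etv6 (0.55 ± 0.30) did not pass (limma adjusted p = 0.795, 0.179 and 0.231), and the sources used here do not say whether their probe sets detect the transgenes.

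Markers of several other cell types differed between the groups. All 8 measured erythroid markers, with Car2 and Alas2 the brightest, were lower in TEL-JAK2 (mean level of the list 12.02 to 12.29 on the ICN1 arrays and 5.04 to 5.64 on the TEL-JAK2 arrays). Of 10 macrophage markers, with Csf1r and C1qb the brightest, 6 were lower, namely Csf1r, Mrc1, Vcam1, Axl, Mertk and Cd163 (8.73 to 10.13 and 5.83 to 7.99). C1qb (-1.86 ± 0.88), C1qa, Cd68 and Adgre1 had negative differences but were not called. Of 8 granulocyte markers 5 were lower, namely S100a8, S100a9, Ngp, Camp and Lcn2 (6.48 to 8.61 and 5.25 to 5.67). Of 7 T-cell markers, with Thy1 and Cd3d the brightest, 5 were higher in TEL-JAK2, namely Cd3d, Cd3g, Cd247, Cd2 and Trat1 (11.37 to 11.62 and 12.21 to 12.67), and all 9 measured proliferation genes were lower (12.17 to 12.36 and 10.03 to 10.99). B-cell markers, with Cd79a and Cd79b the brightest, had 1 of 5 members higher (Vpreb1, 2.28 ± 0.53). Thymic epithelial markers, with Ccl25 and Epcam the brightest, had 3 of 7 higher (Epcam 6.15 ± 0.48, Foxn1 0.33 ± 0.10 and Aire 0.87 ± 0.26). Foxn1 lay near background in both groups (means of 4.52 in ICN1 and 4.85 in TEL-JAK2), and Krt5, Krt8, Psmb11 and Ccl25 were not called. The stroma, endothelium and fat list, with Pdgfrb and Pecam1 the brightest, had 1 of 8 lower (Pdgfra, -1.52 ± 0.43), and 0 of 7 dendritic markers, with H2-Ab1 and H2-Aa the brightest, were called by limma. The part of these cell types and of proliferation in the results below was not tested, also where their values are given. In such bulk samples, fewer cells of a type and less RNA per cell cannot be told apart.

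The promoters of the sterol enzymes share a feature that the choice of genes did not use. RefSeq promoter windows of GRCm38.p6, 250 bases before to 50 after the start site, were matched by symbol for 25 of the 32 measured genes. All 14 sterol synthesis enzymes with a window held the 5-base motif CCAAT or its reverse complement, ATTGG, the core bound by NF-Y, against 42.0% of 14452 measured genes with a window. By window, this was 14 of 17 (82.4%), against 37.4% of all 32851 windows. Among the genes with a window, CCAAT was present in 9 of 9 called higher and 11 of 16 not called. By window, these were 9 of 13 (69.2%) and 12 of 21 (57.1%), and the sterol synthesis enzymes held the motif whether called or not. The E-box CACGTG, which reads the same on both strands, was present in 6 of 25 (24.0%, against 10.2% of measured genes), and by window in 7 of 34 (20.6%, against 7.15% of all windows). The sterol-response-like motif TCACNCCAC, either strand, was present in 1 of 25, the promoter of Hmgcs1 (4.0%, against 1.46% of measured genes), and by window in 1 of 34 (2.94%, against 1.24% of all windows). The LXR-type direct repeat, a pair of AGGTCA letters separated by 4 bases, on either strand, was present in 0 of 34 windows and in 0.0152% of all windows. A match is a description of letters, and shared base composition was not taken into account. The 250 bases before the start site are shown for 3 genes, with CCAAT or ATTGG and the sterol-response-like motif in capitals. Mvd had the largest called difference, Hmgcs1 held the sterol-response-like motif but was not called, and Mvk, picked after its sequence was seen, held the most CCAAT matches among the 25 genes.
Mvd (chr8:122443423-122443672, minus strand): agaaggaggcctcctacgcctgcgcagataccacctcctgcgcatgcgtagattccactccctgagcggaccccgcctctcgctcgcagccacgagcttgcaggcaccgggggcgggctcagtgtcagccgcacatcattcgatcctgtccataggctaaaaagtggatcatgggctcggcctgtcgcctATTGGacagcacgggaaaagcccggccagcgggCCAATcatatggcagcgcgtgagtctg
Hmgcs1 (chr13:119690101-119690350, plus strand): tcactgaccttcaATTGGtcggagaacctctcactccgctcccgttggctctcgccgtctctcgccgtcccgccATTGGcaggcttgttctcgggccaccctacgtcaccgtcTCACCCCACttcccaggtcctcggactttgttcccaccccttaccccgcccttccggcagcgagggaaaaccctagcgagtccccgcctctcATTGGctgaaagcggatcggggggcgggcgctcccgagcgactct
Mvk (chr5:114444019-114444268, plus strand): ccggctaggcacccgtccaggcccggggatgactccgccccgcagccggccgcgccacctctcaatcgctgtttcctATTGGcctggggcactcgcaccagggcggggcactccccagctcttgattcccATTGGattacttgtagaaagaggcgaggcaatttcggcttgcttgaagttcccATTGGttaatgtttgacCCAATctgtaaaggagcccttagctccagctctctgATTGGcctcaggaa
In Mvd, ATTGG stood 60 and CCAAT 27 bases before the start site. In Hmgcs1 the sterol-response-like match, TCACCCCAC, began at position -137. In Mvk, 4 ATTGG matches began at positions -173, -120, -67 and -14, each 53 bases from the next. Counted from the start of each match and including the match itself, 17 of 53 and 14 of 53 bases were identical between the stretches from -173 and -120 and between those from -120 and -67, and 6 of 14 between those from -67 and -14, the start site ending the comparison there.

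Among the 32 genes, those of sterol synthesis were either higher in TEL-JAK2 or not called, and those of fatty acid synthesis were not called. The wider lists given further below also held genes called lower. Of 32 genes 10 were called higher and 0 lower by limma, against 11.9% of all genes called higher and 12.2% called lower (24.1% in either direction). All 32 had a mean of at least 6, and among the 9699 genes that bright 41.6% were called, 21% higher and 20.5% lower, so the share of these genes called, 31.2%, was no larger than that of expressed genes in general. Groups did not overlap for 10 of 32 genes (31.2%, against 34.3% of all genes), all 10 of them with TEL-JAK2 above ICN1 (18.4% of all genes). The median difference over the 32 genes was -0.06, against 0.04 over all genes, and 15 differences were positive and 17 negative. The split by direction depends on how the arrays are scaled. With each array centred on the mean of the 4 CD3 genes, every difference moved by -0.62. That shift was fixed in advance, because the CD3 genes themselves differed by 0.51 (Cd3d), 0.41 (Cd3e), 0.68 (Cd3g) and 0.88 (Cd247). After it 2 genes (Mvd and Dhcr7) were called higher and 17 lower, where 787 genes in all were higher and 11410 lower. Quantile normalization applied again, median centring and cyclic loess gave 10, 9 and 10 of the 32 higher and 0 lower.

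**Figure D1:**
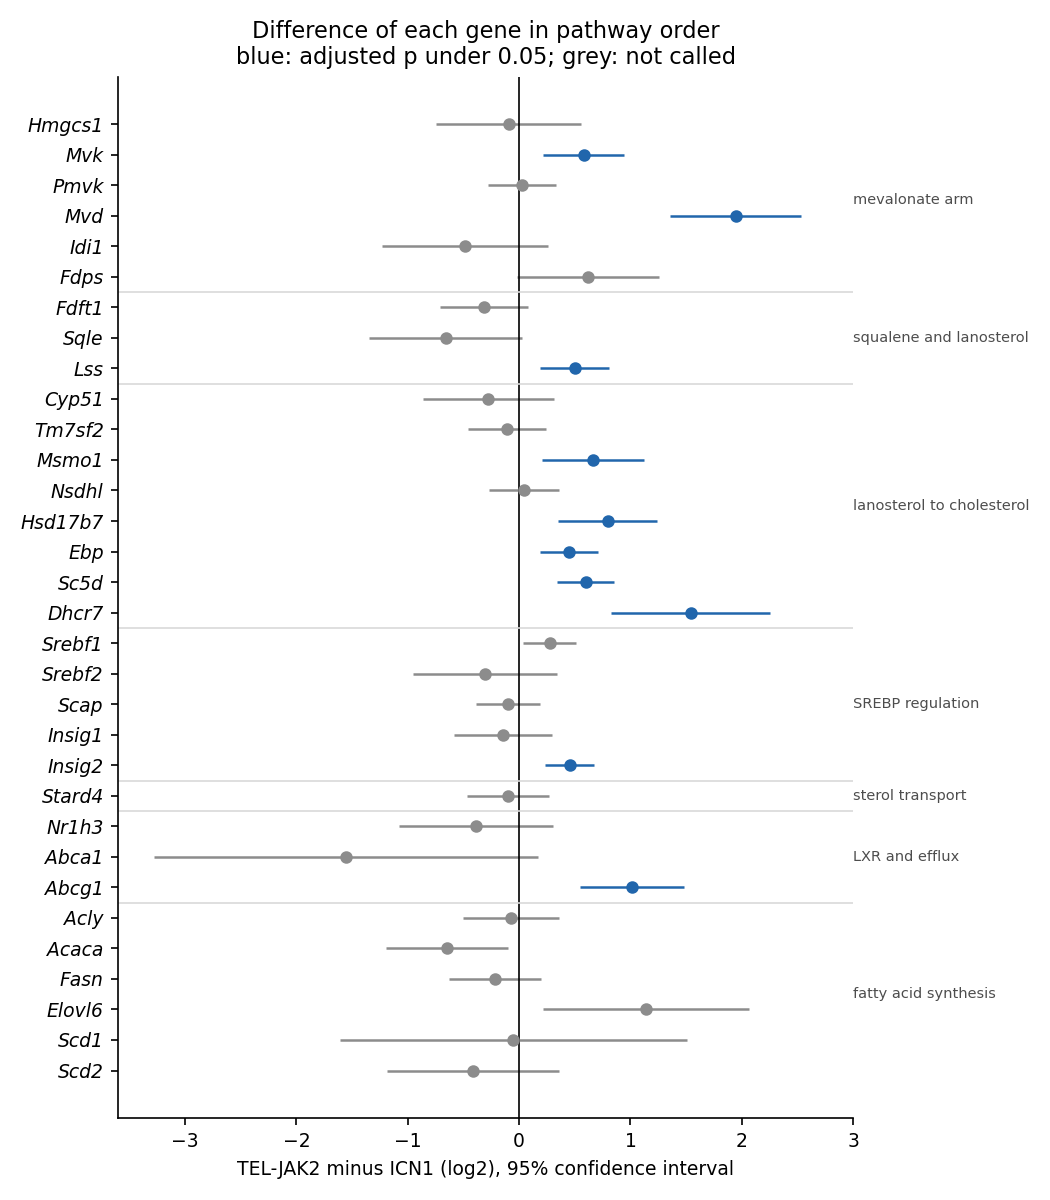
Differences between TEL-JAK2 (4 arrays) and ICN1 (3 arrays) on the log2 scale for 32 genes in pathway order, points with 95% confidence intervals from limma, blue where the adjusted p was under 0.05. The 10 blue points all lie to the right of 0, with Mvd (1.95) and Dhcr7 (1.54) farthest, and 8 of them are enzymes of sterol synthesis.

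The early, mevalonate arm of the pathway was higher at 2 of its 6 measured steps (33.3%, where 11.9% of all genes and 21% of those with a mean of at least 6 were higher). Mvd, the decarboxylase that makes isopentenyl pyrophosphate, read 6.24, 6.60 and 7.01 on the ICN1 arrays and 8.54, 8.92, 8.06 and 8.73 on the TEL-JAK2 arrays. Every TEL-JAK2 array was above every ICN1 array, and the difference of 1.95 ± 0.25 is 3.85-fold (adjusted p = 0.00184 by limma). The other probe set of Mvd read the same way (2.18, adjusted p = 0.00097 over all probe sets), and Mvd was called in all 7 fits without 1 array. Mvk, mevalonate kinase, read 6.53, 7.07 and 6.62 in ICN1 and 7.34, 7.11, 7.46 and 7.36 in TEL-JAK2. The groups were separated by a narrow gap, and the difference was 0.58 ± 0.16, or 1.49-fold (adjusted p = 0.0329 by limma), while its other probe set gave 0.69 (adjusted p = 0.00373 over all probe sets). Its call ended when ICN1 replicate 1 or 3, or TEL-JAK2 replicate 1, 3 or 4, was left out (adjusted p = 0.105, 0.0932, 0.0809, 0.0807 and 0.0671), and its difference turned to -0.04 with CD3 centring.

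The remaining steps of this arm overlapped between the groups. Hmgcs1, the synthase that joins acetoacetyl-CoA and acetyl-CoA, read 9.74, 9.65 and 10.27 in ICN1 and 10.03, 9.75, 9.15 and 10.24 in TEL-JAK2. The lowest and the second highest values were both TEL-JAK2 arrays, and the difference was -0.09 (95% confidence interval -0.74 to 0.56). Idi1, which isomerizes isopentenyl pyrophosphate, read 9.23, 9.04 and 9.72 in ICN1 and 9.19, 8.57, 8.20 and 9.42 in TEL-JAK2. The groups overlapped, with 2 TEL-JAK2 arrays below all others, and the difference was -0.48 (-1.23 to 0.26). Fdps, farnesyl pyrophosphate synthase, read 9.13, 8.69 and 9.59 in ICN1 and 9.93, 9.63, 9.29 and 10.18 in TEL-JAK2. Only TEL-JAK2 replicate 3 fell within the ICN1 range, and the difference of 0.62 (-0.02 to 1.25) was not called (adjusted p = 0.150 by limma). Pmvk, phosphomevalonate kinase, differed by 0.02 (-0.28 to 0.33).

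Squalene and lanosterol formation went in no common direction. Sqle, squalene epoxidase, a rate-controlling step, read 8.84, 8.59 and 9.05 in ICN1 and 8.5, 7.65, 7.75 and 8.76 in TEL-JAK2. TEL-JAK2 replicate 4 lay within the ICN1 range and the others lay below it, and the difference of -0.66 (-1.35 to 0.03) was not called (adjusted p = 0.154 by limma). Fdft1, squalene synthase, differed by -0.31 (-0.71 to 0.08), also without a call. Lss, which closes squalene epoxide into lanosterol, read 7.14, 6.81 and 6.85 in ICN1 and 7.48, 7.19, 7.49 and 7.58 in TEL-JAK2. Its arrays did not overlap, and the difference of 0.50 ± 0.13 was called (1.41-fold, adjusted p = 0.0312 by limma). The call ended when ICN1 replicate 2 or 3, or TEL-JAK2 replicate 1, 3 or 4, was left out (adjusted p = 0.0991, 0.0865, 0.0804, 0.0754 and 0.0662), and the difference turned to -0.12 with CD3 centring. The other probe sets of Lss, with means of 5.67 and 4.97, gave 0.52 and 0.16 (adjusted p = 0.272 and 0.457 over all probe sets), without a call.

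The late steps from lanosterol to cholesterol held 5 of the 10 calls, with 5 of 8 enzymes higher and 0 lower, where 11.9% of all genes were higher. Dhcr7, the reductase of the last step, which turns 7-dehydrocholesterol into cholesterol, read 8.30, 8.76 and 9.27 in ICN1 and 10.57, 9.95, 10.83 and 9.92 in TEL-JAK2. The 4 TEL-JAK2 arrays were all above the ICN1 arrays, and the difference was 1.54 ± 0.30, or 2.91-fold (adjusted p = 0.0103 by limma). Sc5d, the desaturase that makes 7-dehydrocholesterol, read 9.11, 9.04 and 8.97 in ICN1 and 9.68, 9.45, 9.80 and 9.62 in TEL-JAK2. Both groups were tight and did not overlap, and the difference was 0.60 ± 0.11, or 1.51-fold (adjusted p = 0.00735 by limma). Both were called in all 7 fits without 1 array. With CD3 centring Dhcr7 was still called (0.92) and Sc5d read -0.02, and the 2 dimmer probe sets of Sc5d were not called (0.14 and 0.09).

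Hsd17b7 and Ebp, a sterol reductase and the sterol isomerase of this segment, and Msmo1, the C4 demethylating oxidase, were also higher, by 0.80, 0.45 and 0.66. Hsd17b7 read 6.13, 6.63 and 6.55 in ICN1 and 7.28, 7.07, 6.97 and 7.61 in TEL-JAK2, without overlap, a difference of 0.80 ± 0.19 (adjusted p = 0.0217 by limma). The other probe sets of Hsd17b7 gave 0.42, 0.39 and 0.07, none of them called (adjusted p = 0.0505, 0.0747 and 0.693 over all probe sets). Ebp read 9.52, 9.67 and 9.73 in ICN1 and 10.23, 10.19, 9.95 and 9.96 in TEL-JAK2, also without overlap, a difference of 0.45 ± 0.11 (adjusted p = 0.0264 by limma). Msmo1 read 7.62, 7.74 and 8.34 in ICN1 and 8.72, 8.32, 8.73 and 8.48 in TEL-JAK2, a difference of 0.66 ± 0.20 (adjusted p = 0.0474 by limma). For Msmo1 the groups touched, because ICN1 replicate 3 lay just above TEL-JAK2 replicate 2. Leaving out 1 array ended the call of Hsd17b7 in 2 fits (on leaving out ICN1 replicate 1, or else TEL-JAK2 replicate 1, with adjusted p = 0.0666 and 0.0589). It ended that of Ebp in 4 (on leaving out ICN1 replicate 1 or 2, or else TEL-JAK2 replicate 1 or 2, with adjusted p = 0.0885, 0.0629, 0.0689 and 0.0682). Msmo1 kept its call only without ICN1 replicate 3, the other 6 fits giving an adjusted p from 0.0547 to 0.143. With CD3 centring Hsd17b7 and Msmo1 were not called (0.17 and 0.04) and Ebp turned to -0.17.

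The other late enzymes were not called. Cyp51, the lanosterol demethylase, read 8.02, 8.02 and 8.07 in ICN1 and 7.85, 7.69, 7.16 and 8.34 in TEL-JAK2. The 3 ICN1 arrays were nearly equal and lay inside the TEL-JAK2 range, and the difference was -0.28 (-0.86 to 0.31). Tm7sf2, the C14 sterol reductase, differed by -0.11 (-0.46 to 0.24) and Nsdhl, a C4 dehydrogenase, by 0.04 (-0.27 to 0.36).

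**Figure D2:**
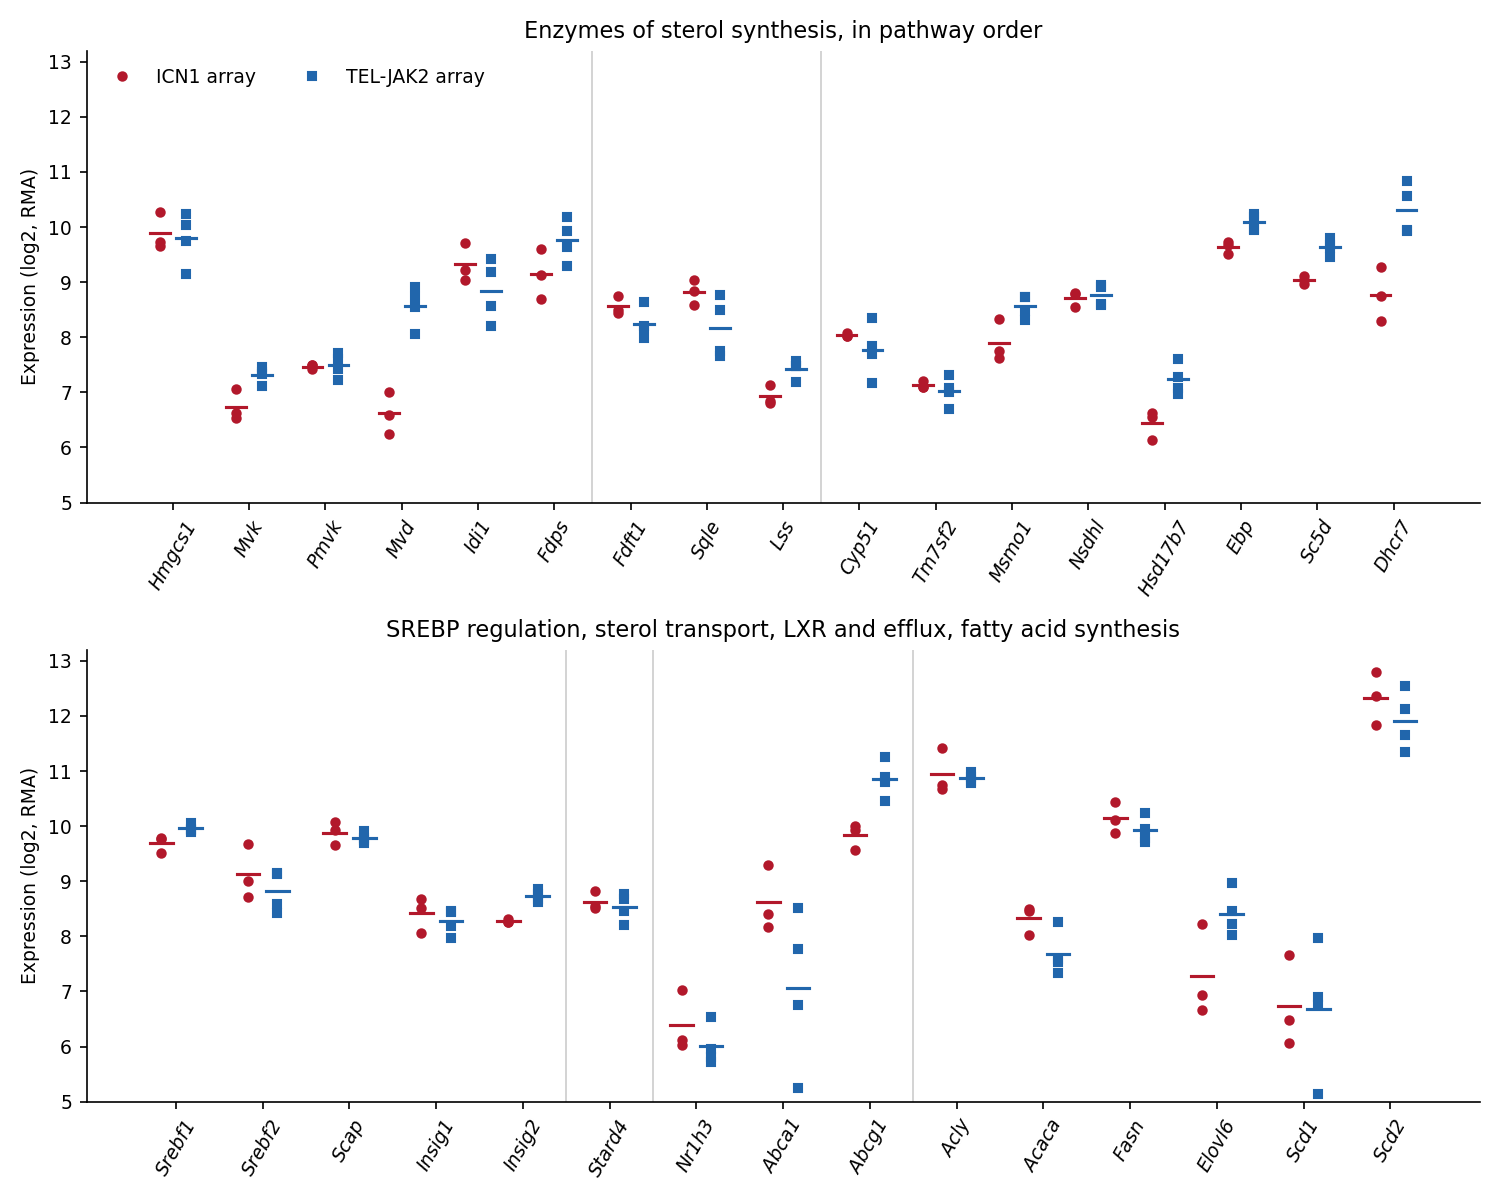
Expression (log2) of 32 genes on each array, circles for 3 ICN1 and squares for 4 TEL-JAK2 arrays, with a bar at each group mean; vertical lines divide the segments of the pathway. Mvd and Dhcr7 are separated by the widest gaps, Abca1 and Scd1 are the most spread within TEL-JAK2, and the heights of different genes are not comparable because each has its own probes.

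Without ICN1 replicates 1 and 2, the 32 differences kept their sign in 29 genes, and 3 genes were called higher. These were Mvd (1.55, adjusted p = 0.0391 by limma), Abcg1 (1.27, adjusted p = 0.0498) and Elovl6 (1.75, adjusted p = 0.0363). The other called sterol enzymes read 0.69 for Mvk, 0.58 for Lss, 0.23 for Msmo1, 0.68 for Hsd17b7, 0.36 for Ebp, 0.67 for Sc5d and 1.05 for Dhcr7, with adjusted p from 0.0566 to 0.554. Insig2 read 0.41 (adjusted p = 0.147).

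Among the SREBP regulators, Insig2 was the only one called. Insig2, one of the endoplasmic reticulum anchors of SCAP, read 8.25, 8.25 and 8.32 in ICN1 and 8.87, 8.62, 8.77 and 8.67 in TEL-JAK2. The groups were tight and separate, and the difference of 0.45 ± 0.09 was 1.37-fold (adjusted p = 0.0121 by limma), called in all 7 fits without 1 array but -0.17 with CD3 centring. Its other probe sets gave 0.68 and 0.25 (adjusted p = 0.0732 and 0.188 over all probe sets). Insig1, the other anchor and itself a target of SREBP, read 8.06, 8.67 and 8.52 in ICN1 and 8.45, 7.98, 8.19 and 8.47 in TEL-JAK2. These overlapped, with a difference of -0.15 (-0.58 to 0.29).

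Neither SREBP gene was called. Srebf2 read 8.72, 9.0 and 9.67 in ICN1 and 8.60, 8.43, 9.13 and 9.15 in TEL-JAK2, an overlap, with a difference of -0.30 (-0.95 to 0.34). That of Srebf2 ranged from -0.51 to -0.03 in the fits without 1 array, at its smallest without ICN1 replicate 3, and was -0.85 without ICN1 replicates 1 and 2 (adjusted p = 0.166 by limma). Srebf1 read 9.52, 9.77 and 9.79 in ICN1 and 10.07, 9.90, 9.96 and 9.94 in TEL-JAK2. The Srebf1 groups did not overlap, yet the difference of 0.27 ± 0.10 was not called (adjusted p = 0.0979 by limma). The probe set of Srebf1 is not known here to separate its 2 main isoforms. Scap differed by -0.10 (-0.38 to 0.19). Stard4, a sterol carrier of the cytosol that is also a target of SREBP2, read 8.82, 8.55 and 8.52 in ICN1 and 8.78, 8.46, 8.21 and 8.67 in TEL-JAK2, a difference of -0.10 (-0.47 to 0.27).

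Of the 2 exporters, Abcg1 was higher and Abca1 was not called. Abcg1, which moves sterol to lipoproteins and within cells, read 9.93, 10.002 and 9.57 in ICN1 and 11.26, 10.89, 10.79 and 10.46 in TEL-JAK2. All TEL-JAK2 arrays were above all ICN1 arrays, and the difference was 1.01 ± 0.20, or 2.02-fold (adjusted p = 0.0104 by limma, called in all 7 fits without 1 array). Its dimmer probe set gave 0.57 (adjusted p = 0.0688 over all probe sets), and with CD3 centring Abcg1 read 0.39 and was not called. Abca1, which loads sterol onto apolipoprotein A-I, read 8.40, 9.30 and 8.18 in ICN1 and 6.75, 7.77, 5.24 and 8.51 in TEL-JAK2. It was the most variable gene within TEL-JAK2, spanning 3.27, and its difference of -1.56 ± 0.74 (-3.28 to 0.17) was not called (adjusted p = 0.178 by limma). The dimmer probe sets of Abca1, with means of 5.28 and 4.38, were called lower (-0.98 and -0.76, adjusted p = 0.0432 and 0.0134 over all probe sets). Nr1h3, the LXR alpha gene, read 7.03, 6.12 and 6.02 in ICN1 and 5.73, 6.54, 5.81 and 5.96 in TEL-JAK2, a difference of -0.38 (-1.08 to 0.31).

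Macrophages are rich in Abca1 and Nr1h3, and macrophage markers varied among the TEL-JAK2 arrays. The mean of the 10 markers was 6.48, 7.66, 5.83 and 7.99 in TEL-JAK2 replicates 1 to 4, the order in which Abca1 stood (6.75, 7.77, 5.24 and 8.51). In ICN1 it was 10.13, 10.04 and 8.73, where Abca1 stood in another order, highest in replicate 2 (8.40, 9.30 and 8.18). Nr1h3 did not follow the markers in TEL-JAK2, being highest in replicate 2 and lowest in replicate 1. Csf1r, the receptor that defines the lineage, was 8.68, 9.68, 7.62 and 10.01 on the same arrays and 12.33, 12.03 and 10.40 in ICN1. Abcg1 did not follow that order, being lowest in TEL-JAK2 replicate 4, where the macrophage mean was highest. The part of macrophages in the values of Abca1 was not tested.

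**Figure D3:**
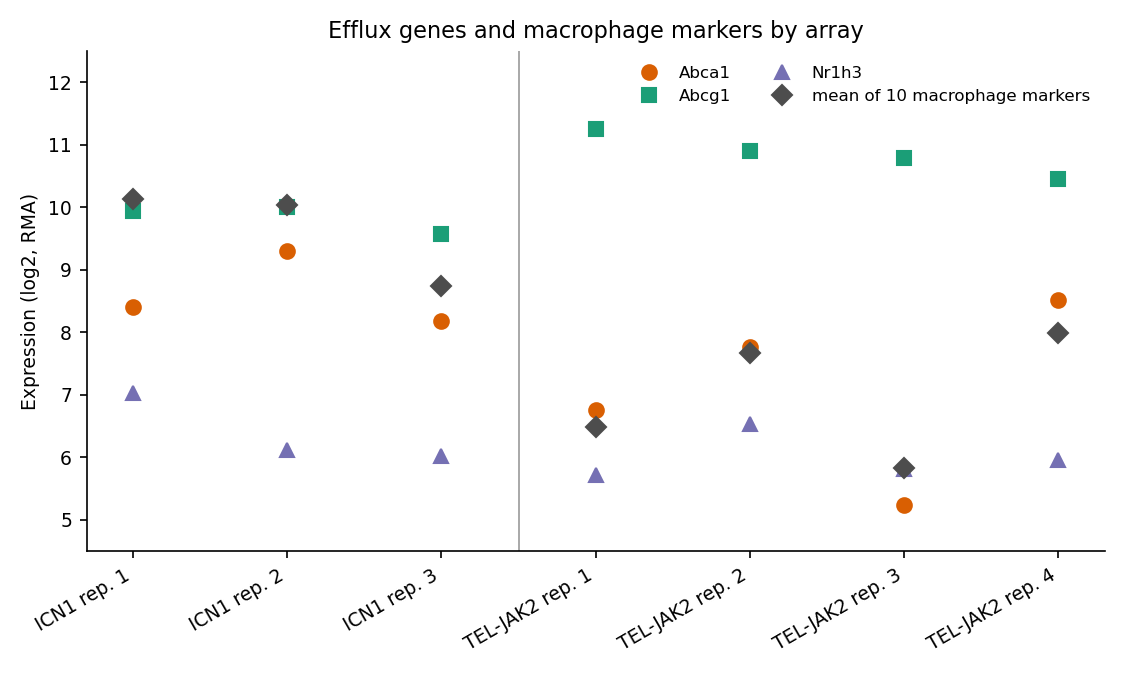
Expression (log2) of Abca1, Abcg1 and Nr1h3 and the mean of 10 macrophage markers on each of 7 arrays. Abca1 and the macrophage mean are lowest together in TEL-JAK2 replicate 3 (5.24 and 5.83) and highest within TEL-JAK2 together in replicate 4 (8.51 and 7.99), while Abcg1 is at 10.46 or above on the 4 TEL-JAK2 arrays.

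None of the 6 fatty acid synthesis genes was called by limma in either direction, where 24.1% of all genes were called. Acly, which splits citrate to supply acetyl-CoA, read 10.74, 10.67 and 11.41 in ICN1 and 10.90, 10.98, 10.78 and 10.81 in TEL-JAK2. Fasn, fatty acid synthase, read 10.11, 9.87 and 10.44 in ICN1 and 9.95, 9.78, 9.72 and 10.24 in TEL-JAK2. Both overlapped, with differences of -0.07 (-0.51 to 0.36) and -0.22 (-0.63 to 0.20). Acaca, the carboxylase that commits carbon to fatty acids, read 8.03, 8.49 and 8.47 in ICN1 and 7.53, 7.59, 7.34 and 8.26 in TEL-JAK2. Its TEL-JAK2 arrays were lower except replicate 4. The difference of -0.65 ± 0.23 was not called (adjusted p = 0.0885 by limma), and was called without TEL-JAK2 replicate 4 (-0.84, adjusted p = 0.0125). Its dimmer probe set was called lower (-0.97, adjusted p = 0.0112 over all probe sets).

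The elongase and the desaturases were not called either. Elovl6, which lengthens palmitate to stearate, read 8.22, 6.93 and 6.67 in ICN1 and 8.22, 8.02, 8.97 and 8.45 in TEL-JAK2. ICN1 replicate 1 alone reached the TEL-JAK2 range. The difference of 1.14 ± 0.39 was not called (adjusted p = 0.0780 by limma), and without that array it was (1.61, adjusted p = 0.0106). Scd1, a stearoyl-CoA desaturase, read 6.07, 7.66 and 6.49 in ICN1 and 6.75, 7.96, 5.14 and 6.89 in TEL-JAK2, spanning 2.82 within TEL-JAK2 and differing by -0.05 (-1.60 to 1.5). Its paralog Scd2 read 11.84, 12.36 and 12.80 in ICN1 and 12.54, 11.35, 11.66 and 12.13 in TEL-JAK2, a difference of -0.42 (-1.19 to 0.35). Reads of close paralogs such as these depend on how specific each probe set is, which was not tested.

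Within each leukemia, several sterol enzymes were high or low on the same arrays. Of the 17 enzymes, TEL-JAK2 replicate 3 gave the lowest TEL-JAK2 value for 10 and replicate 4 the highest for 8. Replicate 1 was above the TEL-JAK2 mean for 15 of 17 and replicate 2 below it for 14. Hmgcs1, Idi1, Fdps and Cyp51 were each highest in replicate 4 and lowest in replicate 3, spanning 1.09, 1.23, 0.89 and 1.18. Sqle was highest in replicate 4 too and spanned 1.11. Dhcr7 did not follow, being highest in replicate 3 (10.83) and lowest in replicate 4 (9.92), and Sc5d and Mvk were highest in replicate 3 as well. In ICN1, replicate 3 gave the highest value for 9 of 17 enzymes and for 4 of 5 SREBP regulators, and replicate 1 the lowest of all 5 regulators. In TEL-JAK2, replicate 4 gave the highest value for 3 of the 5 regulators. There replicate 2 gave the lowest for all 5, and replicate 3, lowest for 10 of 17 enzymes, for 0. The mean of the proliferation genes on the TEL-JAK2 arrays was 10.99, 10.67, 10.03 and 10.96, lowest in replicate 3 and nearly equal in replicates 1 and 4. That of the stroma, endothelium and fat list was 5.02, 4.97, 4.77 and 7.11, and that of the macrophage markers 6.48, 7.66, 5.83 and 7.99, both highest in replicate 4. Replicate 4 was also the only TEL-JAK2 array low in Xist (5.19) and high in Eif2s3y (10.23). The shifts of the sterol enzymes carry no test, since no label divides the arrays of a group, and the part of other cell types in them was not tested.

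**Figure D4:**
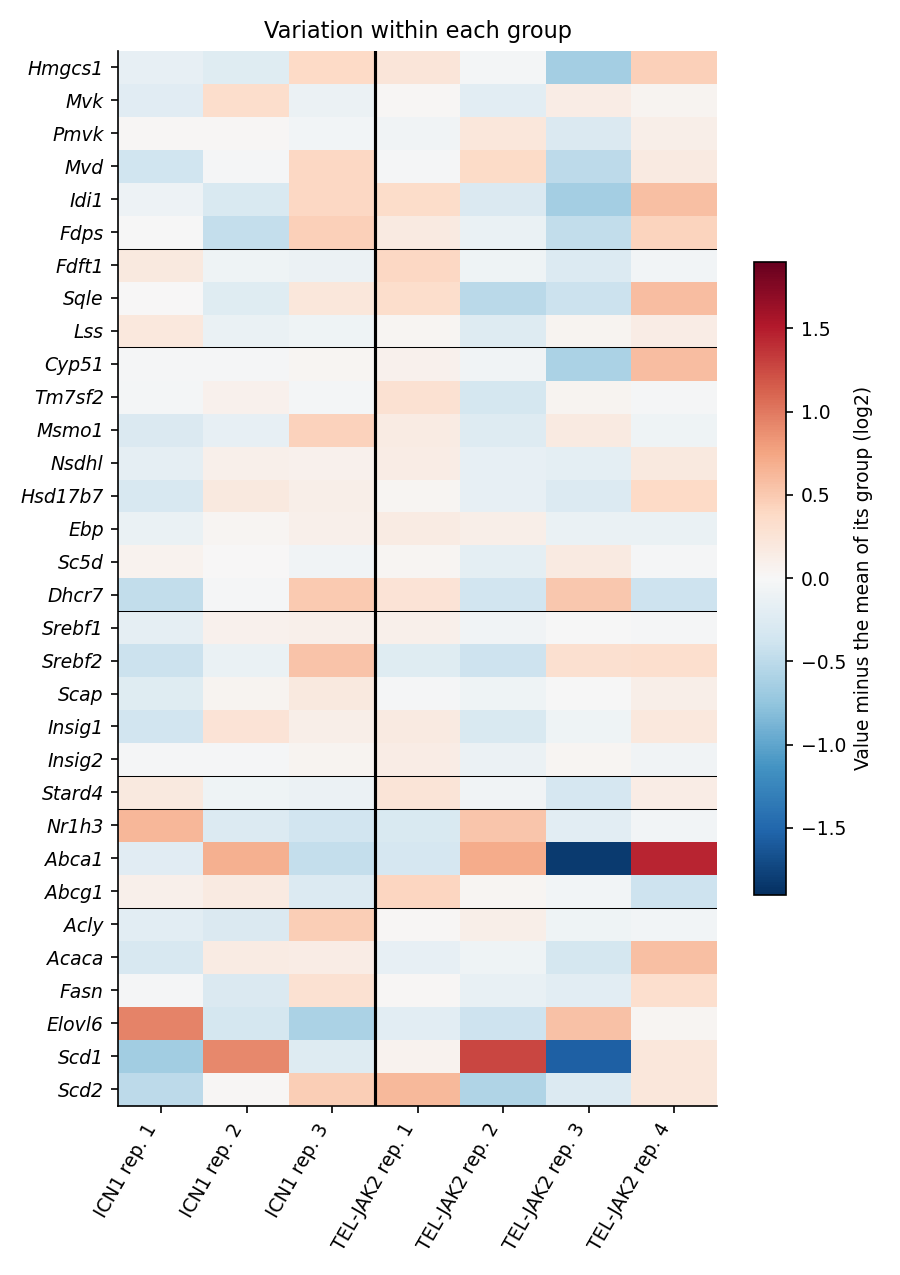
Each cell shows a gene's value on an array minus the mean of its own group (log2; red above, blue below), for 32 genes in pathway order and 7 arrays. TEL-JAK2 replicate 3 is blue for Hmgcs1, Idi1, Fdps and Cyp51 but red for Dhcr7, and Abca1 and Scd1 show the strongest colours.

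Other genes of the pathway, from lists of textbook members, filled in uptake and handling of sterol. Of 10 measured genes of uptake, lysosomal release and esterification, 3 were higher and 3 lower (median 0.30). Of all genes 24.1% were called in either direction, and of those with a mean of at least 6, 41.6%. Npc2 and Npc1, which pass cholesterol out of the lysosome, were higher without overlap. Npc1 read 6.86, 7.31 and 7.20 in ICN1 and 8.56, 8.15, 8.55 and 8.59 in TEL-JAK2 (1.34 ± 0.16, adjusted p = 0.00132 by limma). Npc2 read 12.05, 12.24 and 11.99 in ICN1 and 13.26, 13.18, 13.36 and 13.16 in TEL-JAK2 (1.15 ± 0.10, adjusted p = 0.000394 by limma). Both genes were called in all 7 fits without 1 array, with CD3 centring (0.72 and 0.52) and without ICN1 replicates 1 and 2 (1.26 and 1.25). Lipa, the lysosomal acid lipase, was higher by 1.41 ± 0.39 with overlapping arrays. It lost its call when ICN1 replicate 1 or 3, or TEL-JAK2 replicate 1, 2 or 3, was left out (adjusted p = 0.0915, 0.101, 0.0951, 0.0852 and 0.0888 by limma), and without ICN1 replicates 1 and 2 together (2.05, adjusted p = 0.0545).

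Of the 5 surface receptors of this list, 3 were lower, and Vldlr (0.22 ± 0.10) and Lrp8 (0.39 ± 0.19) were not called. Cd36, a scavenger receptor and fatty acid carrier, read 10.40, 11.18 and 9.15 in ICN1 and 5.48, 5.67, 3.88 and 6.19 in TEL-JAK2, a 30.7-fold difference (-4.94 ± 0.64, adjusted p = 0.00191 by limma). Scarb1, the receptor for high-density lipoprotein, differed by -1.68 ± 0.20 and the endocytic receptor Lrp1 by -1.87 ± 0.47. All 3 were without overlap. Macrophages carry Cd36 and Lrp1, and erythroid precursors carry Cd36. On the same arrays 6 of 10 macrophage markers and all 8 measured erythroid markers were lower in TEL-JAK2. The part of these cells in the values of Cd36, Lrp1 and Scarb1 was not tested. Lrp1 lost its call when ICN1 replicate 1 or 2, or TEL-JAK2 replicate 1 or 3, was left out (adjusted p = 0.0795, 0.0840, 0.0648 and 0.0579 by limma), and without ICN1 replicates 1 and 2 together (-1.19, adjusted p = 0.331). Osbp, an oxysterol-binding protein, was not called (0.17 ± 0.10).

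Of 9 other sterol and isoprenoid genes 2 were lower and 0 higher (22.2% called, against 24.1% of all genes, median -0.01). Tmem97, a membrane protein that binds NPC1, read 8.37, 8.76 and 8.80 in ICN1 and 6.84, 6.79, 5.95 and 7.31 in TEL-JAK2 (-1.92 ± 0.30, adjusted p = 0.00423 by limma). It was lowest in TEL-JAK2 replicate 3 and highest in replicate 4, as Hmgcs1 and Idi1 were. While the C4 demethylation enzymes Msmo1 and Hsd17b7 were higher and Nsdhl was not called (0.04), their scaffold Erg28 was lower (-0.63 ± 0.16). It lost its call when ICN1 replicate 2 or 3, or TEL-JAK2 replicate 3 or 4, was left out (adjusted p = 0.0673, 0.0767, 0.0612 and 0.0589 by limma), and without ICN1 replicates 1 and 2 together (adjusted p = 0.0612). Dhdds was not called (-0.01 ± 0.14). Of 7 SREBP processing and degradation partners only Rnf139 was called (14.3%, against 24.1% of all genes). Rnf139, a ubiquitin ligase of the sterol-sensing machinery, was 2.05-fold lower (-1.04 ± 0.13, adjusted p = 0.00182 by limma). Rnf145 was not called (-0.07 ± 0.14).

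Against 11.9% of all genes higher and 12.2% lower, 1 of 8 LXR partners and other LXR targets was higher and 0 lower. This was Mylip, the ligase that degrades lipoprotein receptors (0.64 ± 0.19), which lost its call in 5 of 7 fits, without ICN1 replicate 1 or any 1 of the TEL-JAK2 arrays (adjusted p from 0.0668 to 0.103 by limma), and read 0.01 with CD3 centring. Rxra was not called (0.08 ± 0.11). Of 20 other fatty acid genes 3 were higher and 5 lower (40.0% called, against 24.1% of all genes and 41.6% of those with a mean of at least 6). Elovl5, an elongase of polyunsaturated fatty acids, was higher (0.78 ± 0.13), as were Acacb, the mitochondrial acetyl-CoA carboxylase (1.57 ± 0.33, from a mean of 4.89 near background in ICN1), and Acsl4 (0.65 ± 0.17). Mid1ip1, an activator of acetyl-CoA carboxylase, was 4.89-fold lower (-2.29 ± 0.25, adjusted p = 0.00104 by limma), and the desaturase Fads1 was 2.01-fold lower (-1.01 ± 0.17). Hacd2 (-0.95 ± 0.17), Gpam (-1.27 ± 0.28) and Hacd3 (-0.43 ± 0.11) were lower too, while Elovl1 was not called (0.05 ± 0.18). Acsl4 lost its call when ICN1 replicate 2 or 3, or TEL-JAK2 replicate 1, 2 or 3, was left out (adjusted p from 0.0563 to 0.0958 by limma) and Hacd3 when ICN1 replicate 1 or 3, or TEL-JAK2 replicate 1, 2 or 3, was left out (0.0583 to 0.0785). Gpam lost it without ICN1 replicate 2 (adjusted p = 0.0536 by limma). Elovl5 and Acsl4 were not called with CD3 centring (0.16 and 0.03), whereas Acacb was (0.95). Without ICN1 replicates 1 and 2 together, Acacb, Fads1, Hacd2 and Hacd3 lost their calls (limma adjusted p = 0.0714, 0.0969, 0.0766 and 0.0568).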

How the data were processed

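RNA of 7 leukemic cell suspensions was measured on Affymetrix mouse arrays. The deposited values are log2 expression levels in 1 table, made by the authors with RMA per the submitters' processing notes (background correction, normalization across arrays and summary per probe set). The sources used here give no RMA version or settings, detection calls or scan dates, so batches were not tested, and the number of arrays limits the precision. RMA draws all arrays to 1 distribution and compresses folds near background. No further scaling was applied, and 0 columns of per-sample values were left unused.

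Of 45037 probe sets, 34945 had 1 gene symbol in the platform annotation, 932 several and 9160 none. Of the 34945, 34741 were matched by gene ID in a RefSeq gene table of GRCm38.p6, which updated 0 symbols. The probe set with the highest mean over 7 arrays represented each of 18193 genes. The package limma 3.58.1, run in R 4.3.3 with lmFit and a two-sided eBayes test, compared 4 TEL-JAK2 with 3 ICN1 arrays, and p-values were adjusted by the Benjamini-Hochberg method over all genes, or over all probe sets with 1 symbol where so stated. Confidence intervals are 95% intervals of that fit, not adjusted for the number of genes. Promoters came from a RefSeq table. Replicates were numbered in accession order. The genes, lists and tests were chosen with earlier results of these data known. All genes of the fixed list are named. Of each further pathway list the text names up to 3 called genes with the smallest adjusted p, the gene with the largest, and every member of a count up to 5. Of each marker list it names the 2 brightest.

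On simulated arrays of 18193 genes for this comparison, the fit called 52 of 100 genes given a change of 1 log2. It called 87 of 100 given 2 log2, with 6 false calls, and made 0 calls with no gene changed. The simulated noise was independent between genes, and far fewer genes were changed than the 4380 called in the data. These counts therefore need not hold for the real arrays. Figures were drawn with matplotlib 3.10.9.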

Additional observations from a re-analysis of the deposited data

How the results depend on the processing

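No paired analysis was possible because the replicate numbers follow accession order and pair no samples. The count of genes called higher (10 of 32 as reported) was 5 to 8 in the 7 fits without 1 array, with 5 in the fit without TEL-JAK2 replicate 1, and that of genes called lower was 0 to 1. The same 5 genes, Mvd, Sc5d, Dhcr7, Insig2 and Abcg1, were called in all 7 of these fits. Over all genes these fits called 1524 to 2170 higher and 1685 to 2066 lower. Without ICN1 replicates 1 and 2 together, 3 of the 32 were higher, and 1039 genes in all were higher. With CD3 centring 2 of the 32 were higher and 17 lower (787 and 11410 of all genes, so that 6.45% of calls were higher against 49.4%). Of the 32, 7 changed sign with a call lost or gained: Mvk (-0.043), Pmvk (-0.60), Lss (-0.12), Nsdhl (-0.58), Ebp (-0.17), Sc5d (-0.025) and Insig2 (-0.17). A per-gene test with unequal variances left 3 of the 32 higher (744 and 888 of all genes higher and lower), a test against a 1.5-fold difference 1, Mvd (515 and 672), and an adjusted p under 0.01 left 2 (987 and 1204). With every probe set tested singly, 12 probe sets of these genes were higher and 3 lower, among 3704 and 4161 in all. With probe sets averaged within a gene 1 gene, Acaca, was lower (-0.81, adjusted p = 0.0217 by limma), and Msmo1 and Sc5d lost their calls (adjusted p = 0.0581 and 0.102). Leaving out probe sets that end in _x_at or _s_at ended the call of Lss (adjusted p = 0.270), median centring that of Msmo1 (0.0591), and a variance trend with robust moderation those of Lss (0.0544) and Msmo1 (0.0525). Quantile normalization applied again, cyclic loess, array weights and leaving out dim genes (mean under 6) changed no call of the 32. Apart from fewer arrays or the stricter thresholds, the cause of these changes was not tested.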
